A study of Mus musculus with 12 samples.

Results

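The 3 Nr4a receptors (Nr4a1, Nr4a2 and Nr4a3) and the 3 salt-inducible kinases (Sik1, Sik2 and Sik3) are described here in mouse tibialis anterior, a shin muscle. They were taken by gene symbol: all 6 were found among the 22607 genes of the count table, and all 6 passed the low-count filter that left 16007 genes to test. The 4 groups were muscle with a Crtc2 expression vector after 3 rounds of alternate day fasting (ADF Crtc2), muscle with a GFP vector, described as empty, after the same fasting (ADF GFP), muscle with the Crtc2 vector from mice fed ad libitum (fed Crtc2), and muscle with the GFP vector from mice fed ad libitum (fed GFP). Each group had 3 libraries from C57BL/6 males aged 13 weeks, so transduction, strain, sex and age were shared by all 12. The labels do not give the vector's type, promoter or dose, and do not say whether the libraries of a group came from separate animals or whether GFP and Crtc2 muscles were paired within animals. The p-values therefore rest on how far these libraries differ from one another, a spread that may be technical.

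Crtc2 is a coactivator of the transcription factor Creb1. When cAMP rises, Crtc2 loses its inhibitory phosphates, enters the nucleus and helps Creb1 switch on genes that carry a cAMP response element (CRE). The Nr4a receptors are orphan nuclear receptors of the immediate early kind and textbook targets of this switch, known in muscle for their part in the control of glucose and lipid use. The salt-inducible kinases work in the opposite direction: they phosphorylate Crtc proteins, which are then held in the cytoplasm by 14-3-3 proteins, and Sik1 is itself switched on through a CRE, which makes it a feedback inhibitor. Sik kinases need phosphorylation by the LKB1 complex to be active, are held back by protein kinase A, and also phosphorylate the class IIa histone deacetylases that restrain MEF2 factors.

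The stretches before the RefSeq start sites of the 3 receptor genes are shown because the CRE is the letter pattern through which Creb1 and Crtc2 are known to act. Each is the 250 bases before the RefSeq start site on GRCm38.p6, 5′ to 3′ on the gene's own strand, and capitals mark the short CRE motif TGACG or, for a copy on the opposite strand, CGTCA. The Nr4a1 stretch is chr15:101266596-101266845 (plus strand), the Nr4a2 stretch chr2:57124004-57124253 (minus strand) and the Nr4a3 stretch chr4:48045055-48045304 (plus strand).
Nr4a1: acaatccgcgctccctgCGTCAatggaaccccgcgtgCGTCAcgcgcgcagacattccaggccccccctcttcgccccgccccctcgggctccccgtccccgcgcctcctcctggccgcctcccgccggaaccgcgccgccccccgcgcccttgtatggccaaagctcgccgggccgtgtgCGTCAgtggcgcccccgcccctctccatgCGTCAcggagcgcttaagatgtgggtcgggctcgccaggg
Nr4a2: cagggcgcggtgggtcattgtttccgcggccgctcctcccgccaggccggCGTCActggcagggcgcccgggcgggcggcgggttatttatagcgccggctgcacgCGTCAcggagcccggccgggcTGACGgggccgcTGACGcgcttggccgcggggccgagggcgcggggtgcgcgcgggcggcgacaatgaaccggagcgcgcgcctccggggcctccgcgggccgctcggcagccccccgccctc
Nr4a3: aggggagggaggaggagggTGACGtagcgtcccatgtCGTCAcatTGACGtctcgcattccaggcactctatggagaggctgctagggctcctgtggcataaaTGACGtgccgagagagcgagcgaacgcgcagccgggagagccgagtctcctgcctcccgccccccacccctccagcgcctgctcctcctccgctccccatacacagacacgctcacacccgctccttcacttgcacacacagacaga
The RefSeq table gave windows of 300 bases, 250 before and 50 after the start site, for 5 of the 6 genes. Sik1 had no entry. Each of the 3 receptor windows held 4 short motifs, the Sik3 window held 3 and the Sik2 window 2. Of 32851 windows of this length, 20.8% held at least 1 short motif, 5.01% at least 2, 1.03% at least 3 and 0.231% at least 4. The windows of these genes are rich in G and C (64.7 to 81.7%, against a median of 52.7% over all windows), and among the 6218 windows with at least 64.7% G and C the shares with at least 2, 3 and 4 motifs were 9.13%, 2.19% and 0.563%. None of the 5 windows held the full palindrome TGACGTCA, which contains both short forms and was present in 1.79% of all windows. In Nr4a1 all 4 copies read on the opposite strand, at positions -233, -213, -69 and -40 from the start site. The copies of Nr4a2 lay at -200, -144, -123 and -111, and those of Nr4a3 at -231, -213, -205 and -147. These matches describe the letters of the windows and are not measurements of binding.

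**Figure D1:**
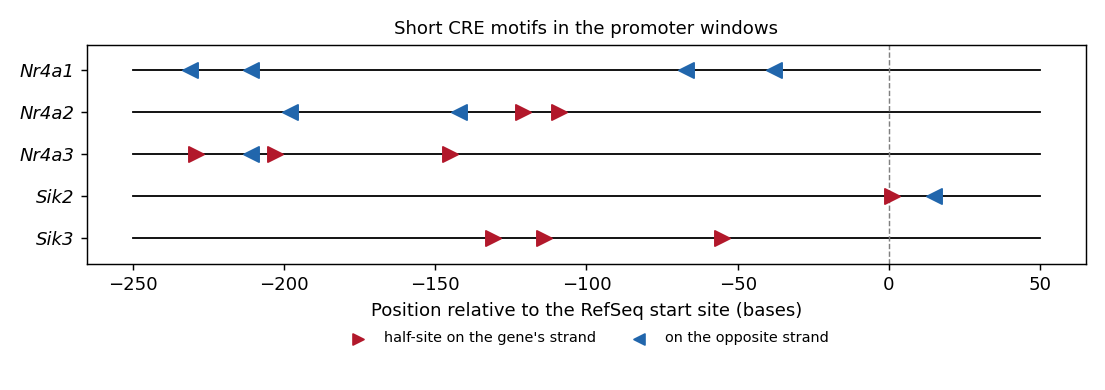
Positions of the short CRE motif in the RefSeq promoter windows of 5 genes, in bases from the start site (dashed line); red triangles mark copies on the gene's strand and blue triangles copies on the opposite strand. The 3 Nr4a windows hold 4 copies each, all upstream of the start site, the Sik3 window 3 and the Sik2 window 2, with no copy of the full palindrome in any of them.

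In gene models of GENCODE mouse release 21 on GRCm38, Nr4a1 (ENSMUSG00000023034) lies on chromosome 15 from 101254269 to 101274795, Nr4a2 (ENSMUSG00000026826) on chromosome 2 from 57106830 to 57124003 and Nr4a3 (ENSMUSG00000028341) on chromosome 4 from 48045153 to 48086447. The RefSeq starts used for the Nr4a1 and Nr4a3 windows fall inside the longer GENCODE models of those genes. The whole Nr4a1 stretch printed above and the last part of the Nr4a3 stretch therefore lie within these models. Sik1 (ENSMUSG00000024042) lies on chromosome 17 from 31844250 to 31855804, Sik2 (ENSMUSG00000037112) on chromosome 9 from 50892801 to 51009073 and Sik3 (ENSMUSG00000034135) on chromosome 9 from 46012820 to 46224194. Values refer to whole genes, exons and untranslated regions together. Sik2 is the only one of the 6 whose exons overlap those of another gene, sharing 1429 bases with Ppp2r1b on the opposite strand. The strand setting used in counting is not given in the sources used here, so reads in that stretch cannot be assigned with certainty.

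Libraries held 24232450 to 34610417 counts, and 14313 to 17226 genes were detected in each. Levels are counts divided by the TMM-scaled library size and given as CPM, the usual per-library scale, and 3 counts in a library correspond to 0.0814 to 0.130 CPM. Even numbers made up 68.9 to 74.7% of small counts (2 to 21) in each library, so low counts may stand for fewer fragments than printed. All 7 muscle fibre markers (Acta1, Ckm, Mylpf, Myh1, Myh2, Myh4 and Des) were detected in every group. Crtc2, the gene the vector carries, had 42.8, 40.6 and 31.4 CPM in ADF Crtc2 muscle and 19.7, 16.1 and 23.6 CPM in ADF GFP muscle, and 64.9, 58.2 and 77.9 CPM in fed Crtc2 muscle and 29.2, 17.3 and 24.0 CPM in fed GFP muscle. All Crtc2 libraries lay above all GFP libraries, and averaged over the diets Crtc2 was higher by 1.23 ± 0.20 on the log2 scale (SE, edgeR quasi-likelihood test, adjusted p = 0.00578). Within a single diet the difference was 1.51 ± 0.28 in fed muscle and 0.95 ± 0.27 under ADF. Neither passed after adjustment (edgeR adjusted p = 0.134 and 0.127). In Crtc2 muscle, Crtc2 was lower under ADF than in fed muscle by -0.81 ± 0.27 (edgeR adjusted p = 0.0623). The part of this lower level in the differences between ADF and fed Crtc2 muscle and in the interaction was not tested. The counts do not separate vector transcripts from those of the mouse gene.

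In the fit over all 12 libraries, Nr4a3 was the only gene of the 6 with a difference that passed the test. Nr4a3 was higher under ADF in GFP muscle, where it averaged 26.5 ± 17.6 CPM under ADF and 1.58 ± 1.50 CPM in fed muscle (SD, n = 3 each). That call was lost in several fits that left out 1 library, and Nr4a1 and Sik3 each passed in some such fit. A difference that did not pass is not shown to be absent. Nr4a1 was by far the most abundant receptor and no difference in it passed the test. Nr4a2 had the lowest mean level, with 3 libraries at 0, and none of the 3 kinases passed the test between any groups.

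Nr4a3, also called NOR1, had 35.8, 16.4 and 15.6 CPM in ADF Crtc2 muscle and 46.4, 20.2 and 12.8 CPM in ADF GFP muscle, against 14.2, 6.86 and 4.22 CPM in fed Crtc2 muscle and 0, 2.99 and 1.75 CPM in fed GFP muscle. Within each vector the 3 ADF libraries lay above the 3 fed libraries, and the fed GFP libraries were the lowest of all. The highest fed library, fed Crtc2 replicate 1, lay between the lowest and the other ADF libraries. In GFP muscle the difference between ADF and fed was 4.05 ± 1.04 on the log2 scale, a 16.6-fold rise with a 95% interval of 3.48 to 79.2-fold (SE, edgeR quasi-likelihood test, unadjusted p = 0.00192, adjusted p = 0.0328). The value of 0 in fed GFP replicate 1 rests on 0 counts where the other fed GFP libraries had 88 and 52. Nr4a3 averaged 14.8 CPM over all 12 libraries and 1.58 CPM in fed GFP muscle. In that library 32.8% of the 2326 genes averaging 1 to 3 CPM over all libraries were at 0, and 0.375% of the 2401 genes averaging 10 to 20 CPM. Without fed GFP replicate 1 the difference was 3.48 with an adjusted p of 0.00315.

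The call in GFP muscle was sensitive to single libraries. The call was lost in each of the following fits. Its adjusted p was 0.101 without ADF GFP replicate 1 (log2 difference 3.38), 0.0787 without ADF GFP replicate 2 and 0.145 without fed GFP replicate 3. It was 0.0618 without ADF Crtc2 replicate 2, 0.0673 without ADF Crtc2 replicate 3 and 0.0654 without fed Crtc2 replicate 2. These Crtc2 libraries are not part of the comparison, and without them the log2 difference stayed at 4.05 to 4.06. Without fed GFP replicate 2 the difference was 4.84. The sign was the same in 19 of 19 alternative settings, with log2 differences from 3.38 to 4.84. DESeq2, run on all 12 libraries, also called Nr4a3 higher (log2 difference 4.03, DESeq2 adjusted p = 9.69e-05).

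In Crtc2 muscle Nr4a3 averaged 22.6 ± 11.4 CPM under ADF and 8.44 ± 5.19 CPM in fed muscle (SD, n = 3 each). The log2 difference of 1.42 ± 0.93 did not pass (2.68-fold, 95% interval 0.661 to 10.8-fold, edgeR adjusted p = 0.399), although the libraries did not overlap. It was 0.92 without ADF Crtc2 replicate 1 and 2.02 without fed Crtc2 replicate 1. Averaged over both vectors, Nr4a3 rose by 2.74 ± 0.69 under ADF, or 6.66-fold with an interval of 2.36 to 18.8-fold (adjusted p = 0.0142). That call was lost without fed Crtc2 replicate 2 (adjusted p = 0.0556) and without fed GFP replicate 3 (adjusted p = 0.0549).

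In fed mice the difference in Nr4a3 between Crtc2 and GFP muscle did not pass after adjustment, except when no low-count filter was used (adjusted p = 0.00275). The 3 fed Crtc2 libraries lay above the 3 fed GFP libraries, with a log2 difference of 2.40 ± 0.98 (5.29-fold, 95% interval 1.22 to 22.9-fold, unadjusted p = 0.0290, edgeR adjusted p = 0.877). It was 1.80 without fed Crtc2 replicate 1, 1.83 without fed GFP replicate 1 and 3.24 without fed GFP replicate 2. Under ADF the Crtc2 and GFP libraries overlapped, and the difference was -0.23 ± 0.91 (0.853-fold, interval 0.217 to 3.35-fold, adjusted p = 1). The difference between these differences, the diet by vector interaction, was -2.63 ± 1.33 (unadjusted p = 0.0688, adjusted p = 0.670). A vector response of Nr4a3 that differs between the diets was thus not shown, and the intervals are too wide to say that it does not.

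Nr4a1, also called NUR77, had 162, 158 and 117 CPM in ADF Crtc2 muscle and 156, 158 and 148 CPM in ADF GFP muscle, against 122, 128 and 178 CPM in fed Crtc2 muscle and 137, 104 and 60.8 CPM in fed GFP muscle. The fed GFP libraries were spread over the widest range and included the 2 lowest values of all 12. The ADF GFP libraries averaged 154 ± 5.46 CPM and lay above all fed GFP libraries, which averaged 101 ± 38.2 CPM. This difference of 0.62 ± 0.24 on the log2 scale (1.53-fold, 95% interval 1.08 to 2.16-fold) had an unadjusted p of 0.0181 and did not pass after adjustment (edgeR adjusted p = 0.146). Single fed GFP libraries moved it either way: without replicate 1 it was 0.90 and passed (adjusted p = 0.0359), and without replicate 3 it was 0.36 (adjusted p = 0.429).

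In Crtc2 muscle Nr4a1 was nearly level between the diets: 146 ± 24.6 CPM under ADF and 143 ± 30.6 CPM in fed muscle (SD, n = 3 each), a log2 difference of 0.03 ± 0.24 that was -0.25 when libraries were scaled by their totals (95% interval 0.724 to 1.44-fold and edgeR adjusted p = 0.971 with TMM). Fed Crtc2 muscle was above fed GFP muscle by 0.50 ± 0.24, with overlapping libraries (unadjusted p = 0.0482, adjusted p = 0.877). Under ADF the vectors differed by -0.08 ± 0.24, which bounds any difference to between 0.670-fold and 1.33-fold (95% interval). The interaction was -0.58 ± 0.34 (unadjusted p = 0.0991, adjusted p = 0.705). For both Nr4a1 and Nr4a3, then, fed GFP muscle had the lowest mean of the 4 groups. The comparisons that show this share those same 3 libraries and are not independent of each other.

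Nr4a2, also called NURR1, was barely expressed. It had 0, 1.38 and 1.03 CPM in ADF Crtc2 muscle and 1.71, 1.55 and 1.85 CPM in ADF GFP muscle, against 6.88, 3.28 and 1.52 CPM in fed Crtc2 muscle and 1.89, 0 and 0 CPM in fed GFP muscle. The values rest on 0 to 176 counts, and 3 of 12 libraries were at 0. Zeros were common at this abundance: among the genes averaging 1 to 3 CPM, 5.12 to 36.2% were at 0 in a library. Fed Crtc2 muscle had the highest mean, 3.89 ± 2.73 CPM, against 0.630 ± 1.09 CPM in fed GFP muscle, and ADF Crtc2 libraries lay below all fed Crtc2 libraries and below all ADF GFP libraries. No comparison passed the edgeR test: the log2 difference of Crtc2 from GFP in fed muscle was 2.62 ± 2.10 (adjusted p = 1), and that of ADF from fed was -2.27 ± 2.07 in Crtc2 muscle (adjusted p = 0.583) and 1.43 ± 2.02 in GFP muscle (adjusted p = 0.799). Without fed Crtc2 replicate 1 the vector difference in fed muscle was 1.93. Without fed GFP replicate 1 the fed GFP libraries that remain are at 0, and the fitted differences of 9.80 between the vectors and 8.61 between the diets are no bounds.

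**Figure D2:**
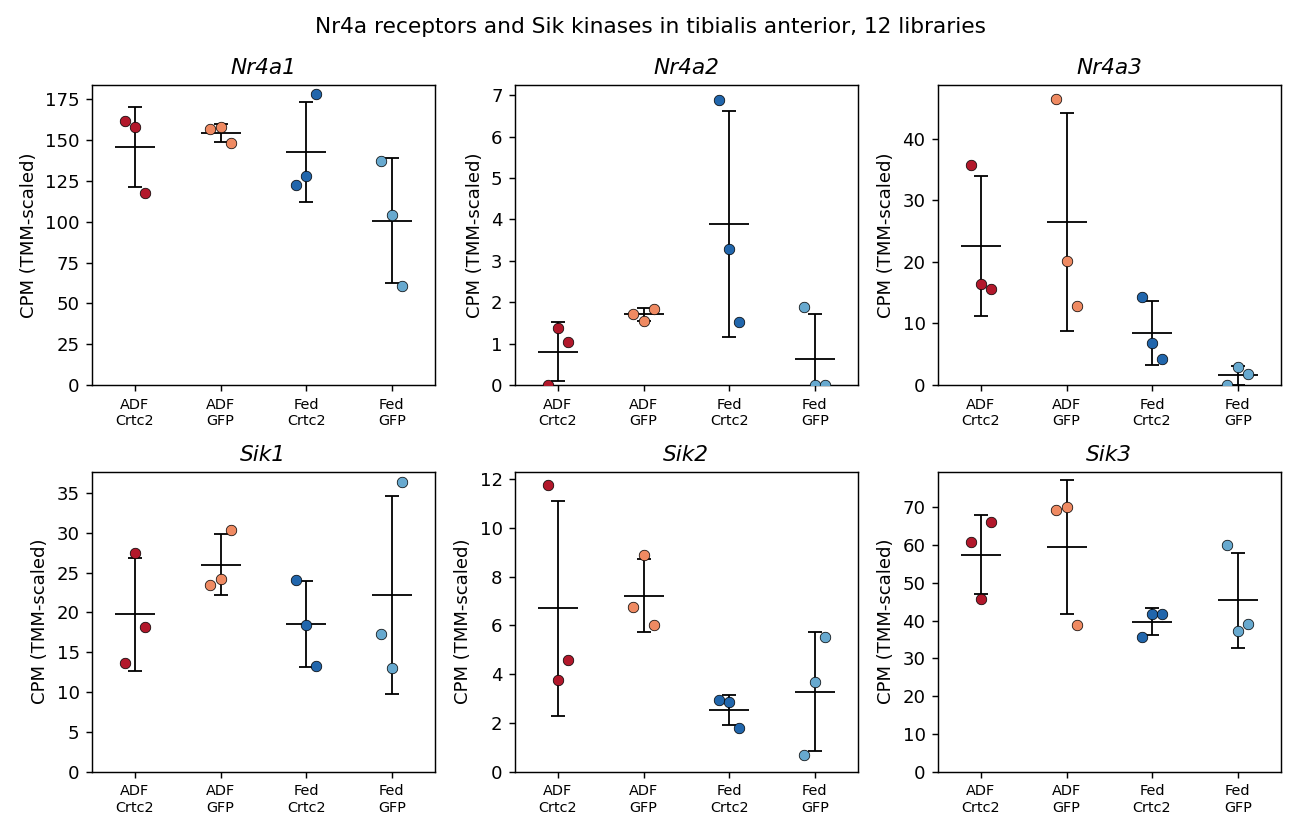
CPM of the 6 genes in the 12 libraries, by group; points are libraries, horizontal lines group means and bars ± 1 SD (n = 3), drawn down to 0 at most, and each panel has its own linear axis from 0. Nr4a3 is higher in the ADF groups (means 22.6 and 26.5 CPM) than in fed Crtc2 (8.44 CPM) and fed GFP muscle (1.58 CPM), while the groups of Sik1 overlap throughout.

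Sik1, the inducible kinase of the family, had 13.6, 27.5 and 18.2 CPM in ADF Crtc2 muscle and 23.4, 24.2 and 30.4 CPM in ADF GFP muscle, against 24.0, 18.5 and 13.3 CPM in fed Crtc2 muscle and 17.4, 13.0 and 36.4 CPM in fed GFP muscle. The groups overlapped in every comparison, and the fed GFP libraries alone covered the whole range. The log2 differences of ADF from fed were 0.09 ± 0.40 with Crtc2 (edgeR adjusted p = 0.943) and 0.23 ± 0.40 with GFP (adjusted p = 0.850). Their signs are not stable: the difference with Crtc2 was -0.20 with scaling by library totals, and that with GFP was -0.08 without fed GFP replicate 2. Crtc2 differed from GFP by -0.40 ± 0.40 under ADF (95% interval 0.429 to 1.35-fold) and by -0.26 ± 0.40 in fed muscle (0.472 to 1.48-fold). Without fed GFP replicate 3, the highest library, the difference in fed muscle was 0.29.

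Sik2 had 11.7, 3.75 and 4.59 CPM in ADF Crtc2 muscle and 6.77, 8.91 and 6.00 CPM in ADF GFP muscle, against 2.93, 2.84 and 1.81 CPM in fed Crtc2 muscle and 0.669, 3.67 and 5.53 CPM in fed GFP muscle. With either vector the ADF libraries lay above the fed libraries, by 1.40 ± 0.91 on the log2 scale with Crtc2 (edgeR adjusted p = 0.374) and by 1.13 ± 0.90 with GFP (adjusted p = 0.563), and neither passed. Averaged over the vectors the difference was 1.27 ± 0.64, with an interval of 0.957 to 6.05-fold (unadjusted p = 0.0608, adjusted p = 0.188). Ppp2r1b, which shares exonic bases with Sik2, had lower means under ADF than in fed muscle with either vector: 1.30 ± 1.21 CPM in ADF Crtc2 and 3.44 ± 1.05 CPM in ADF GFP muscle, against 4.13 ± 3.87 CPM in fed Crtc2 and 6.29 ± 5.88 CPM in fed GFP muscle.

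Sik3 was the steadiest of the kinases. It had 60.7, 45.7 and 66.0 CPM in ADF Crtc2 muscle and 69.2, 70.1 and 38.9 CPM in ADF GFP muscle, against 35.5, 41.7 and 41.7 CPM in fed Crtc2 muscle and 59.9, 37.1 and 39.2 CPM in fed GFP muscle. In Crtc2 muscle the ADF libraries lay above the fed ones, by 0.53 ± 0.27 (1.45-fold, 95% interval 0.984 to 2.13-fold, edgeR adjusted p = 0.226). In GFP muscle ADF replicate 3 fell among the fed libraries, and the difference was 0.39 ± 0.27 (adjusted p = 0.478). Averaged over the vectors Sik3 was higher under ADF by 0.46 ± 0.19 (1.38-fold, interval 1.05 to 1.81-fold), with an unadjusted p of 0.0240 and an adjusted p of 0.0998. The adjusted p was 0.0429 without ADF GFP replicate 3 (log2 difference 0.58) and 0.0352 without fed GFP replicate 1 (0.59). Crtc2 muscle differed from GFP muscle in Sik3 by -0.05 ± 0.27 under ADF and by -0.19 ± 0.27 when fed, both with an adjusted p of 1.

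Per kilobase of exon, which allows levels to be compared between genes, Nr4a1 stood first at a mean of 38.7 CPM per kb over the 12 libraries. Sik3 followed at 5.42, Sik1 at 4.22, Nr4a3 at 2.47, Sik2 at 0.517 and Nr4a2 at 0.433 CPM per kb. The libraries of Sik3 and Sik1 overlapped in each of the 4 groups, with means of 6.16 and 3.85 CPM per kb in ADF Crtc2, 6.37 and 5.07 in ADF GFP, 4.25 and 3.62 in fed Crtc2, and 4.87 and 4.33 CPM per kb in fed GFP muscle. The place of Nr4a3 depended on the group: it was at 3.77 ± 1.91 CPM per kb in ADF Crtc2 and 4.42 ± 2.95 in ADF GFP muscle, near Sik1, against 1.41 ± 0.867 in fed Crtc2 and 0.264 ± 0.251 CPM per kb in fed GFP muscle, where it was near Sik2 (0.345). Nr4a1 made up 91.4 ± 2.61% of the summed Nr4a level per kb in ADF Crtc2 muscle and 90.3 ± 5.13% in ADF GFP muscle, against 94.1 ± 4.24% in fed Crtc2 and 98.5 ± 0.277% in fed GFP muscle (SD, n = 3 each). The share of Nr4a3 was 8.11 ± 3.00% in ADF Crtc2 and 8.79 ± 5.21% in ADF GFP muscle, against 3.48 ± 2.41% in fed Crtc2 and 1.11 ± 0.957% in fed GFP muscle. Among the kinases Sik3 and Sik1 held most of the summed level in every group: 57.5 and 35.9% in ADF Crtc2, 51.5 and 42.3% in ADF GFP, 52.8 and 44.0% in fed Crtc2, and 52.7 and 43.5% in fed GFP muscle.

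The calls among the 6 genes stand beside those over all genes as follows. Between ADF and fed GFP muscle 1 of the 6 genes was called, higher (Nr4a3), where 4.06% of all genes were called higher, 3.06% lower and 7.12% in either direction. Nr4a1 and Nr4a3 had an unadjusted p under 0.05, as did 19.8% of all genes. Between ADF and fed Crtc2 muscle 0 of 6 were called, against 11.0% of all genes (6.30% higher and 4.68% lower), and 0 had an unadjusted p under 0.05, against 24.4% of all genes. DESeq2 also called 0 there. Averaged over the vectors 1 of 6 was called, higher, against 9.38% of all genes (18.0% in either direction). Between Crtc2 and GFP in fed muscle edgeR called 0 of 6 members and 0 of all genes (0.00%); 2 members, Nr4a1 and Nr4a3, had an unadjusted p under 0.05, as did 5.44% of all genes. Under ADF 0 of 6 members differed between Crtc2 and GFP, against 0.725% of all genes, and 0 had an unadjusted p under 0.05, against 11.3% of all genes. Averaged over the diets 0 of 6 differed between the vectors, against 0.494% of all genes. DESeq2 called 0 members in either vector comparison. The interaction gave 0 calls among all genes (0.00%), and 0 members with an unadjusted p under 0.05, against 7.75% of all genes.

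Groups without overlap were more frequent than calls, for the members and for genes at large. Between ADF and fed GFP muscle Nr4a1, Nr4a3 and Sik2 had no overlap and were higher, against 14.3% of all genes, and 0 were lower without overlap (11.3%). Between ADF and fed Crtc2 muscle Nr4a3, Sik2 and Sik3 had none and were higher (14.8% of all genes), while Nr4a2 had none and was lower (15.7%). Between Crtc2 and GFP in fed muscle only Nr4a3 of the 6 had none (4.70% of all genes were higher in this way), and under ADF only Nr4a2, which was lower (11.8%). The median log2 difference of the 6 members between ADF and fed was 0.31 in Crtc2 muscle, where that of all genes tested was -0.13, and 0.87 in GFP muscle, where that of all genes was -0.01. Between Crtc2 and GFP it was -0.17 under ADF and 0.15 in fed muscle, beside -0.01 and 0.01 for all genes.

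**Figure D3:**
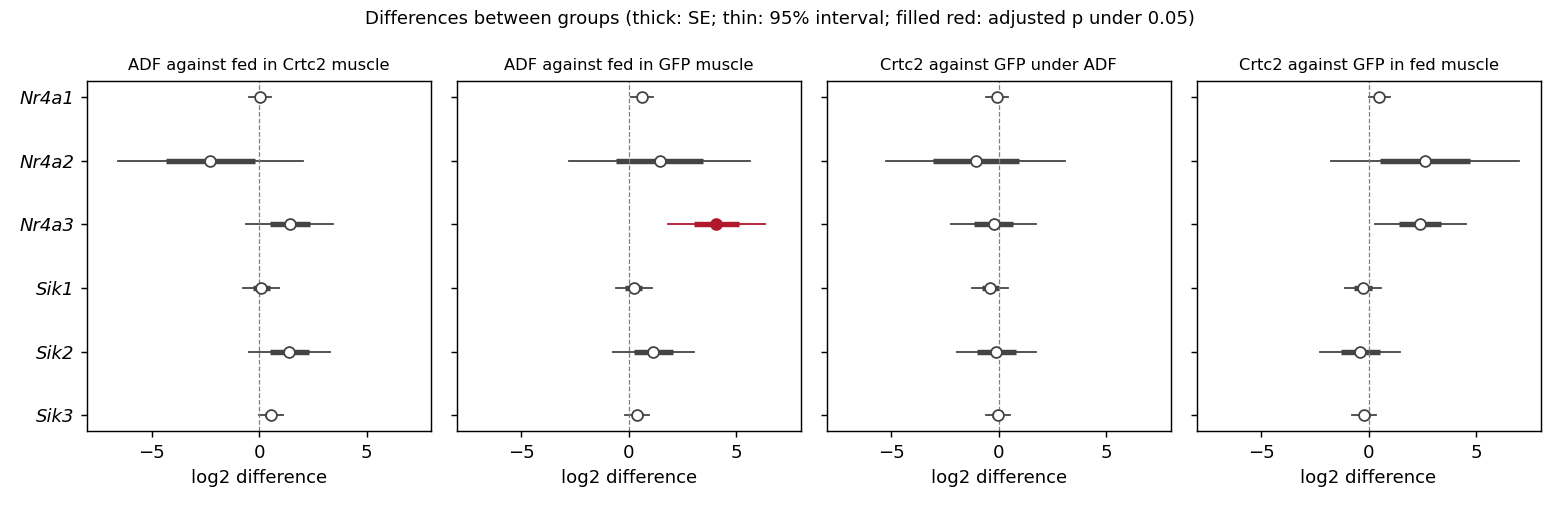
Log2 differences of the 6 genes in 4 comparisons from the edgeR fit over all 12 libraries; circles are estimates, thick bars SE and thin bars 95% intervals, and a filled red circle has an adjusted p under 0.05. Nr4a3 in ADF against fed GFP muscle, at 4.05 ± 1.04, is the only filled point, and the intervals of Nr4a2 are the widest.

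The whole tissue was sequenced, so fewer cells of a type and less RNA per cell cannot be told apart. Markers of other cells differed between the groups. The summed level of the 4 adipocyte markers was 15.8 to 54.6 CPM in ADF Crtc2 and 26.0 to 43.0 CPM in ADF GFP muscle, against 8.66 to 24.0 CPM in fed Crtc2 and 7.24 to 15.0 CPM in fed GFP muscle. Most of it came from Cfd, and Lep, a defining marker, had a median of 0 and reached 0.0680 CPM at most. The summed fibroblast level was 1199 to 2584 CPM in ADF GFP and 562 to 1516 CPM in fed GFP muscle, and the summed macrophage level of 6 markers was 304 to 455 CPM in ADF GFP and 194 to 259 CPM in fed GFP muscle. In Crtc2 muscle the macrophage sum was 117 to 168 CPM under ADF and 155 to 182 CPM in fed muscle, and the fibroblast sum was 608 to 938 CPM under ADF and 447 to 1158 CPM in fed muscle. The sum of 5 T cell markers was 0.676 to 1.30 CPM in ADF Crtc2 muscle, with 1 marker (Cd3g) at 0, against 10.2 to 46.2 CPM in ADF GFP, 7.36 to 42.5 CPM in fed Crtc2 and 16.6 to 37.4 CPM in fed GFP muscle. The sum of 3 smooth muscle markers was 72.4 to 88.1 CPM in ADF Crtc2 and 104 to 114 CPM in ADF GFP muscle, against 123 to 133 CPM in fed Crtc2 and 122 to 243 CPM in fed GFP muscle, and 2 of the 3 were called lower under ADF averaged over the vectors. The part of these cell types in the values of the 6 genes was not tested. The protocols name 2 library kits without assigning them, and a difference in preparation that followed the diets cannot be told apart from fasting.

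The genes whose pattern over the 12 libraries came closest to each member were found by the root mean square difference in mean-centred log2 CPM, among 12060 named genes averaging 1 CPM or more. For Nr4a3 they were Lrp5 (0.697), a Wnt co-receptor, the pseudogene Rab11b-ps2 (0.829) and Pank1 (0.909), a kinase of coenzyme A synthesis. Lrp5 averaged 35.1 CPM in ADF Crtc2 and 32.7 CPM in ADF GFP muscle, against 9.09 CPM in fed Crtc2 and 4.59 CPM in fed GFP muscle. Like Nr4a3, Lrp5 and Pank1 had 0 counts in fed GFP replicate 1 and Rab11b-ps2 had 3, so the likeness rests in part on that library. For Nr4a1 the nearest were Mn1 (0.196), Rangap1 (0.197) and Cbx7 (0.212), and for Nr4a2 Dact1 (1.06), Epha4 (1.15) and Trmt11 (1.20), at distances that show how loosely its zeros are matched. Sik1 was nearest to Igfbp3 (0.236), Tdg (0.261) and Ctgf (0.271), 2 of which encode secreted proteins. Sik2 was nearest to Rassf8 (0.431), Bmpr2 (0.462) and Zfand2a (0.478), and Sik3 to Dapk2 (0.190), Thrap3 (0.197) and Pcif1 (0.201).

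Several genes whose products control Sik kinases and Crtc proteins changed with the diet. Of 18 genes of the LKB1 complex, protein kinase A, calcineurin and the 14-3-3 family, 7 were higher and 1 lower between ADF and fed Crtc2 muscle, and 3 higher and 1 lower between ADF and fed GFP muscle. Among all genes 6.30% were higher and 4.68% lower with Crtc2, and 4.06% higher and 3.06% lower with GFP. Cab39, the scaffold protein MO25 that activates LKB1, averaged 335 CPM in ADF Crtc2 and 244 CPM in ADF GFP muscle, against 142 CPM in fed Crtc2 and 140 CPM in fed GFP muscle. It rose by 1.24 ± 0.18 in Crtc2 muscle and 0.80 ± 0.18 in GFP muscle. Prkar2a, a regulatory subunit of protein kinase A, rose by 1.55 ± 0.27 in Crtc2 muscle and 1.40 ± 0.27 in GFP muscle. Prkacb, a catalytic subunit of that kinase, rose by 1.38 ± 0.32 in Crtc2 muscle, and the 14-3-3 gene Ywhag by 0.90 ± 0.17 in GFP muscle. These calls held with each library left out in turn, with a highest adjusted p of 0.0448 for Cab39 in GFP muscle. Of the other genes called higher in Crtc2 muscle, Ywhae lost its call in 10 of the 12 fits that left out a library, Stradb in 9 and Ppp3cb and Ywhag in 5 each. Ywhaz, lower there by -1.21 ± 0.31, lost it in 3. Strada, a pseudokinase of the LKB1 complex, was lower by -1.26 ± 0.34 in GFP muscle, and its adjusted p was 0.109 without ADF GFP replicate 3. With scaling by library totals, which shifted the median of all genes by -0.29 in Crtc2 muscle, the count there was 2 higher and 2 lower; with median-of-ratios factors it was 4 higher and 1 lower.

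Among the class IIa histone deacetylases and the MEF2 factors they restrain, most of the genes called higher were MEF2 genes. Of the deacetylase genes only Hdac5 was called higher, in Crtc2 muscle alone, and Hdac7 was called lower with both vectors. Of 7 genes, 4 were higher and 1 lower in Crtc2 muscle (6.30% and 4.68% of all genes). In GFP muscle 2 were higher and 1 lower (4.06% and 3.06% of all genes). With scaling by library totals 1 was higher and 1 lower with either vector. Mef2d rose by 1.03 ± 0.17 in Crtc2 muscle and by 1.19 ± 0.17 in GFP muscle under ADF, and both calls held with any library left out. Mef2a (0.69 ± 0.21) and the deacetylase gene Hdac5 (0.75 ± 0.24, adjusted p = 0.0448) rose in Crtc2 muscle, and their calls were lost in 6 and 8 of the 12 fits that left out a library. In GFP muscle Mef2a was at 0.44 ± 0.21 (adjusted p = 0.244) and Hdac5 at 0.44 ± 0.24 (adjusted p = 0.316). The deacetylase gene Hdac7 averaged 9.55 CPM in ADF Crtc2 and 15.9 CPM in ADF GFP muscle, against 49.6 CPM in fed Crtc2 and 40.8 CPM in fed GFP muscle, and fell by 2.38 ± 0.34 on the log2 scale in Crtc2 muscle and by 1.36 ± 0.33 in GFP muscle. In GFP muscle its adjusted p was 0.0745 without fed GFP replicate 1, and without ADF GFP replicate 2 that of Mef2c, which rose by 1.03 ± 0.24, was 0.0568. Hdac7 is also expressed by endothelial cells, and of 5 endothelial markers 2 were called lower between ADF and fed Crtc2 muscle, Kdr and Esam. The summed endothelial level was 194 to 247 CPM in ADF Crtc2 and 252 to 385 CPM in ADF GFP muscle, against 300 to 423 CPM in fed Crtc2 and 227 to 492 CPM in fed GFP muscle, and its part in the fall of Hdac7 was not tested.

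**Figure D4:**
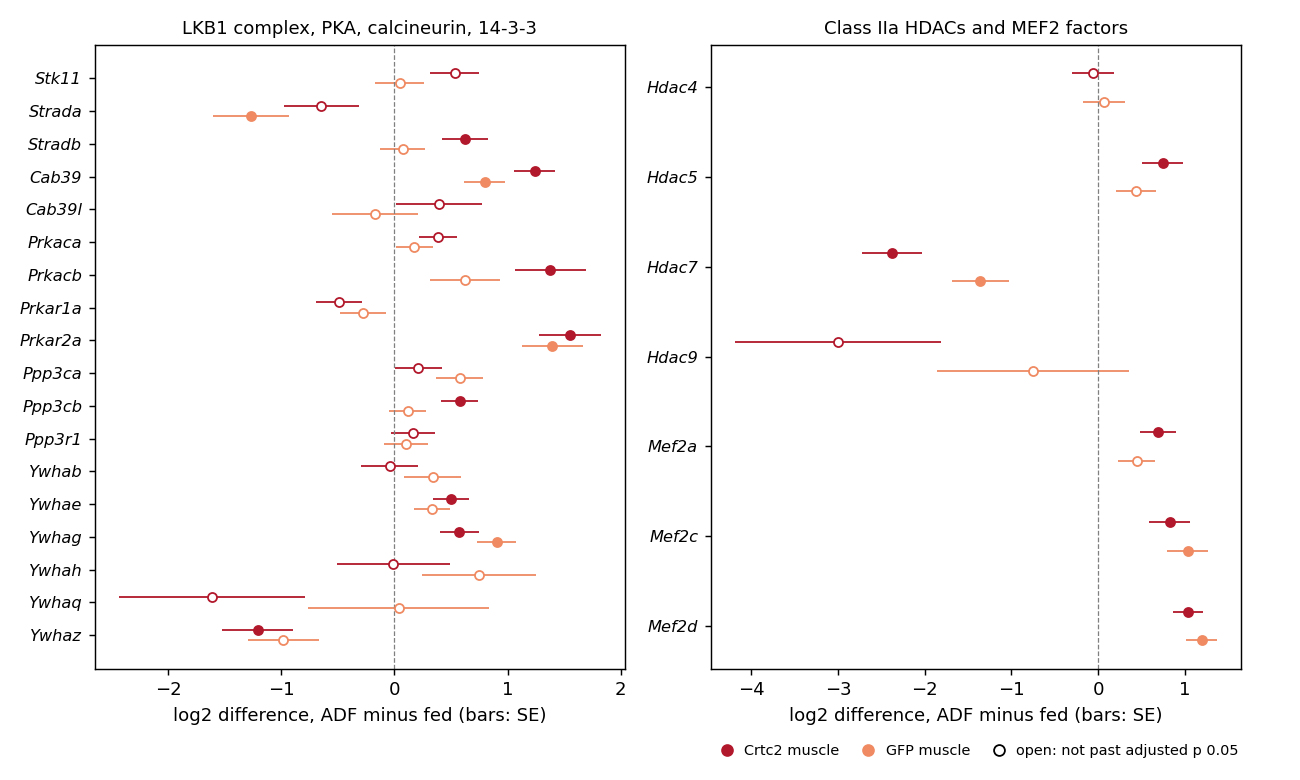
Log2 differences between ADF and fed muscle for 18 genes of the LKB1 complex, protein kinase A, calcineurin and 14-3-3 proteins (left) and 7 class IIa deacetylase and MEF2 genes (right), in Crtc2 muscle (dark red) and GFP muscle (orange); bars are SE and filled circles have an adjusted p under 0.05. Cab39, Prkar2a, Mef2c and Mef2d are filled above 0 with both vectors and Hdac7 is filled below 0 with both.

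Other genes that Creb1 is known to switch on gave no uniform picture. Of 18, 3 were higher and 2 lower between ADF and fed Crtc2 muscle (6.30% and 4.68% of all genes). Between ADF and fed GFP muscle 2 of the 18 were higher and 0 lower (4.06% and 3.06% of all genes). Their median log2 difference was -0.20 with Crtc2 and 0.44 with GFP, beside -0.13 and -0.01 for all genes. Pde4d, a phosphodiesterase that degrades cAMP, averaged 150 CPM in ADF Crtc2 and 117 CPM in ADF GFP muscle, against 16.3 CPM in fed Crtc2 and 27.8 CPM in fed GFP muscle, rising by 3.20 ± 0.25 and 2.07 ± 0.24. The clock gene Per1 rose by 1.51 ± 0.34 in Crtc2 muscle, and its difference of 1.10 ± 0.34 in GFP muscle did not pass (edgeR adjusted p = 0.0547). Egr1, an immediate early gene like the Nr4a receptors, fell by 2.12 ± 0.58 in Crtc2 muscle, with an adjusted p of 0.104 without fed Crtc2 replicate 2. Id1 fell by 1.85 ± 0.43 there, with an adjusted p of 0.0553 without fed Crtc2 replicate 1. In GFP muscle the difference was 0.003 ± 0.56 for Egr1 and -1.27 ± 0.42 for Id1 (edgeR adjusted p = 0.0785 for Id1). Irs2, an adaptor of the insulin receptor, averaged 12.7 CPM in ADF GFP muscle and was at 0 in all fed GFP libraries. It was also called higher in Crtc2 muscle (edgeR adjusted p = 0.0487), a call lost in 8 of the 12 fits that left out a library. Of the 8 Crtc and Creb factors, Atf1 rose in GFP muscle, by 2.12 ± 0.47, and edgeR called 0 in Crtc2 muscle, where 3 had an unadjusted p under 0.05 and DESeq2 called 1, lower.

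Among 11 of 12 AMPK-related kinases that were tested, the relatives of the Sik family under LKB1, 4 were higher in Crtc2 muscle (1 higher and 1 lower with scaling by library totals) and 2 in GFP muscle. Beside this list and those that follow, 6.30% of all genes were higher and 4.68% lower in Crtc2 muscle. In GFP muscle these shares were 4.06% and 3.06%. Prkaa2, which encodes an AMPK catalytic subunit, averaged 233 CPM in ADF GFP and 92.8 CPM in fed GFP muscle, a rise of 1.33 ± 0.30. It was also called higher in Crtc2 muscle (edgeR adjusted p = 0.0383), a call lost in 8 of the 12 fits that left out a library. Mark4 rose by 2.37 ± 0.59 in Crtc2 muscle and by 2.13 ± 0.58 in GFP muscle (edgeR adjusted p = 0.0269). The call in GFP muscle was lost in 5 of the 12 fits that left out a library. Of the 3 retinoid X receptors, the partners with which Nr4a1 and Nr4a2 can pair, edgeR called 2 in Crtc2 muscle, where Rxra rose by 1.26 ± 0.32 and Rxrb by 0.88 ± 0.23. In GFP muscle it called 0, with 2 at an unadjusted p under 0.05, Rxra at 1.06 ± 0.32 (adjusted p = 0.0534), and 1 call by DESeq2. Rxrg went the other way there, at -0.75 ± 0.36 (edgeR adjusted p = 0.255). With scaling by library totals 1 of the 3 was called, higher, with either vector. In Crtc2 muscle the adjusted p reached 0.0787 without ADF Crtc2 replicate 1 for Rxra and 0.0658 without fed Crtc2 replicate 2 for Rxrb. Of 11 genes of glucose use linked to Nr4a1 in muscle, 4 were higher and 1 lower in Crtc2 muscle, and 0 higher and 1 lower in GFP muscle (3 higher and 1 lower, and 1 higher and 2 lower, with scaling by library totals). Prkag3, the AMPK subunit of glycolytic fibres, fell by 1.93 ± 0.25 in Crtc2 muscle and by 2.09 ± 0.25 in GFP muscle, while the glycolytic enzyme gene Pgk1 rose by 1.00 ± 0.20 and the glycogen primer gene Gyg by 0.79 ± 0.17 in Crtc2 muscle. Between Crtc2 and GFP muscle edgeR called 0 of the 76 genes tested in these 7 lists under ADF (10 with an unadjusted p under 0.05), 0 in fed muscle (8) and 0 in the interaction (7). Of all genes edgeR called 0.725% under ADF, 0.00% in fed muscle and 0.00% in the interaction. The shares with an unadjusted p under 0.05 were 11.3, 5.44 and 7.75%. Of the 76 genes DESeq2 called 2 higher and 1 lower under ADF, 2 higher and 0 lower in fed muscle, and 0 higher and 2 lower in the interaction. Averaged over the diets Crtc2 itself and Irs2 passed, the last with means of 4.84 CPM with Crtc2 and 6.33 CPM with GFP, which run against its fitted rise, and with the call lost in 10 of 12 fits that left out a library.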

How the data were processed

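The authors deposited raw read counts per gene, whole numbers without normalization, for 12 libraries. Tools listed in the submitters' processing notes are Subread 1.6.1 with featureCounts, HISAT2 2.0.5, DESeq2 1.18.1 and SAMtools 1.7, and the build GRCm38; the role of each tool, the annotation and the strand setting are not given in the sources used here. Per the labels' protocols, TRIzol RNA was used.

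The counts were fitted with edgeR 4.0.16 in R 4.3.3: TMM scaling, filterByExpr, robust quasi-likelihood fit of 4 group means over all 12 libraries, Benjamini-Hochberg adjustment over 16007 genes and a threshold of 0.05. There were 7 comparisons, including the averages over vectors or diets and the interaction. An exact test of 3 against 3 cannot go below 0.1. Alternatives were other scalings and filters, no robust estimation, DESeq2 1.42.0, the replicate block and each library left out. The floor of 3 counts covers counting error only. The procedure was tested on simulated counts with large changes between the diets, in genes above the mean level of Nr4a2. Small changes, vector differences and interactions were not simulated. No library duplicated another of its group. All 6 members, the 3 nearest genes to each and up to 3 genes of each list with the smallest adjusted p, are named, with a few others chosen after their values were seen. The members and lists were chosen with earlier results of these data known. 0 columns belonged to no sample.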

Additional observations from a re-analysis of the deposited data

How the results depend on the processing

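Of the changes recomputed for the members, 748 kept their direction and side of the threshold, 9 lost and 5 gained significance, and 36 turned their sign without passing in either setting; all 48 levels held. Outside the left-out libraries the turned values were -0.25 (Nr4a1) and -0.20 (Sik1) for ADF against fed Crtc2 muscle, -0.049 (Sik1) for the average and -0.037 (Sik3) for the interaction with scaling by library totals, and, with the replicate block, -0.0027 (Nr4a1, ADF against fed Crtc2) and 0.72 (Nr4a2, average). With 1 library left out, values that turned ranged as follows: ADF against fed in GFP muscle (Sik1 -0.077 to 0.78), ADF against fed in Crtc2 muscle (Nr4a1 -0.069 to 0.22, Sik1 -0.23 to 0.31), Crtc2 against GFP in fed muscle (Sik3 -0.32 to 0.057, Sik1 -0.53 to 0.29, Sik2 -0.86 to 0.22), Crtc2 against GFP under ADF (Sik2 -0.79 to 0.17, Sik3 -0.28 to 0.092, Nr4a1 -0.16 to 0.051, Nr4a3 -0.73 to 0.45), ADF against fed averaged over both vectors (Nr4a2 -0.74 to 3.17, Sik1 -0.0079 to 0.43), Crtc2 against GFP averaged over both diets (Sik3 -0.24 to 0.0038, Sik2 -0.59 to 0.054), diet by vector interaction (Sik1 -0.69 to 0.14, Sik2 -0.42 to 0.75, Sik3 -0.11 to 0.29). Correlations of deviations between libraries of the same replicate number were weak (-0.0378 to 0.0413). Of the 12 libraries, 8 correlated best with their own number among the libraries of other groups, a hint of pairing from the data only. Whether the replicate numbers pair the libraries is thus not settled. With the replicate block, 0 members were called between ADF and fed GFP muscle, where Nr4a3 differed by 3.73 with an adjusted p of 0.0644, and the block changed no other call of a member. Without the low-count filter 1 member was called between ADF and fed Crtc2 muscle (Nr4a3, adjusted p = 0.0463) and 1 between Crtc2 and GFP in fed muscle (Nr4a3, adjusted p = 0.00275). Genes called between Crtc2 and GFP in fed muscle, 0 by edgeR, numbered 64 with DESeq2, 58 without the filter and 3 without robust estimation. Under ADF, 116 became 556 with DESeq2 and 385 without the filter; averaged over the diets, 79 became 364 and 344; in the interaction, 0 became 111 and 67. The causes were not tested. With 1 library left out, the called genes ranged from 677 to 1230 (ADF against fed, GFP), 1129 to 1940 (ADF against fed, Crtc2), 2322 to 2990 (both), 0 to 18 (Crtc2 against GFP, fed), 25 to 164 (under ADF), 42 to 148 (both) and 0 to 3 (interaction). Called members ranged from 0 to 2 for ADF against fed in GFP muscle and averaged, and stayed at 0 elsewhere. Scaling by library totals shifted the median of all genes by -0.29 between ADF and fed Crtc2 muscle and by -0.10 in GFP muscle, and lowered the share of higher calls to 29.3% with Crtc2 (57.4% with TMM, 45.9% with DESeq2) and 44.4% with GFP (57.0% with TMM). Averaged over the vectors the share was 33.1% (52.0% with TMM). Under ADF 22.7% of DESeq2 calls between Crtc2 and GFP were higher (10.3% with edgeR). Nr4a2 had the fewest counts of the members, 0 to 176 a library.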
